A study of Drosophila melanogaster with 2 samples.

Results

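Of 35 genes that lay out the body plan of the Drosophila melanogaster embryo, 15 had at least 1 E2f1-eGFP region inside the gene or within 5 kb of it, and 2 had one at a promoter of their own. The 35 genes are the gap, pair-rule, segment polarity, dorsal-ventral and Hox genes named below, taken by name from a fixed list (hry is hairy) out of 13945 protein-coding genes of the Ensembl annotation BDGP6.54 on the major arms (X, 2L, 2R, 3L, 3R) and chromosome 4. All 35 were found by symbol. Chromatin came from whole embryos of strain E2f1-GFP, collected from 0 to 24 hours of age, which carry an inserted transgene for an E2f1-eGFP fusion protein. The chromatin, sheared by sonication to 200 to 800 bp, was pulled down through the GFP tag and its DNA sequenced, an assay known as ChIP-seq. The study has 1 group of 2 biological replicates, the same strain and age in both, with no second genotype, treatment or stage. What drives the transgene is not given in the sources used here, and a whole embryo mixes all cell types and ages, so binding in few cells and weak binding in many cells cannot be told apart.

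E2f1 is the activating E2F factor of flies. With its partner Dp it binds DNA upstream of genes for DNA synthesis and is held in check by the retinoblastoma proteins. The genes described here act in another layer: gap genes divide the embryo into broad domains, pair-rule genes into stripes, segment polarity genes set the borders of segments, dorsal-ventral genes set the germ layers, and Hox genes give segments their identity. Many of them are controlled by enhancers that lie in introns or far from the promoter, and Hox genes are kept silent outside their domains by Polycomb proteins.

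The sequences that show how E2F sites lay at these genes are those of the tin and Abd-B summits, the member regions with the highest and the third highest peaks, and those around the other E2F sites found in member regions. An E2F site here is any of the 4 spellings TTCCCGC, with other middle bases TTCGCGC or else TTGCCGC, and lastly also TTGGCGC, on either strand, and is printed in capitals. The windows at the tin promoter and Abd-B hold 101 bases centred on the summit. The window upstream of tin has its summit at base 121 of 194, with a site on each side. In the others the summit is base 11, and they run to beyond the site. All are the plus strand of the RefSeq dm6 assembly, 5′ to 3′.
tin promoter, chr3R:21378722-21378822: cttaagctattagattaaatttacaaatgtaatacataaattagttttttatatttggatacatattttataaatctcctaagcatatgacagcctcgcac
Abd-B intron, chr3R:16969731-16969831: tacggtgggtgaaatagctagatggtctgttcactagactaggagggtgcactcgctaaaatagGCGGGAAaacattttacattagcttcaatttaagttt
tin upstream, chr3R:21376349-21376542: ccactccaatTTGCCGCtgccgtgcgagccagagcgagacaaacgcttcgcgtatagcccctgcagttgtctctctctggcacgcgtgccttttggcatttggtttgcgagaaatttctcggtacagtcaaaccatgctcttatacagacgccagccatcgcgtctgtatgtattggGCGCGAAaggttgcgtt
ftz flank, chr3R:6869518-6869675: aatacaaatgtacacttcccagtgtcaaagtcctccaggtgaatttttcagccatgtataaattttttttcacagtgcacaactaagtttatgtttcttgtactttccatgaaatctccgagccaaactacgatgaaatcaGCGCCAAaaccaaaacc
wg intron, chr2L:7313636-7313791: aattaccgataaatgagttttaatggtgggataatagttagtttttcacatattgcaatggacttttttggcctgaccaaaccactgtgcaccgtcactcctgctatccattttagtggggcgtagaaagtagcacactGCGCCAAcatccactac
sog intron, chrX:15615654-15615764: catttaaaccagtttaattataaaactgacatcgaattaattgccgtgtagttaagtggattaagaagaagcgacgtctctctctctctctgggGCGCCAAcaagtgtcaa
abd-A flank, chr3R:16834801-16834881: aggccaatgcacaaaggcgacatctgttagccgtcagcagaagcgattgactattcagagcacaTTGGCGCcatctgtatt

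The tin promoter window is AT-rich, with 24.8% G and C, and holds no E2F site. The Abd-B window has the spelling TTCCCGC on the minus strand, 14 bp from the summit, and is the 1 member summit of 31 with a site within 50 bp. Around the ftz, wg, sog and abd-A summits the spelling was TTGGCGC in each case, 131, 129, 84 and 54 bp from the summit. The upstream region of tin held 2 sites, TTCGCGC at 57 bp and TTGCCGC at 104 bp.

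The authors deposited a set of regions for each replicate, with 3779 and 3280 regions, and 2 sets over both replicates, a conservative one of 4439 and a larger one of 5167. Every region in them had a global IDR (irreproducible discovery rate) of at most 0.01 in its ranked list. The results below use the conservative set unless another is named. The height of a peak is a score from the authors' files with no stated rescaling, and it was ranked only within a set. Sequencing depth is unknown, since reads per region are not given, and no precision can be put on a height. The 35 genes held 31 of the 4439 regions (0.698%), and no summit among them lay in an exon outside the promoter windows.

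Regions were found at 15 of the 35 genes (42.9%), against 46.4% of all 13945 protein-coding genes under the same rule. The larger set had 16 genes (45.7%, against 49.5% of coding genes). Replicate 1 had 10 (28.6%, against 41.6%), and replicate 2 also had 10 (28.6%, against 38.9%). The share of members was thus close to that of all genes over both replicates and below it in each replicate's own set. Regions in all 4 sets were found at 7 genes, ftz, cad, sog, dpp, tin, Abd-B and Antp. A further 5 had them in 3 sets (hry, slp1, hh, Ubx and Scr), 3 in 2 sets (wg, abd-A and lab), and run and Dfd in 1 set each. The remaining 18 genes had none in any set. All coding genes were not counted by number of sets, so these numbers have no background share beside them.

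**Figure D1:**
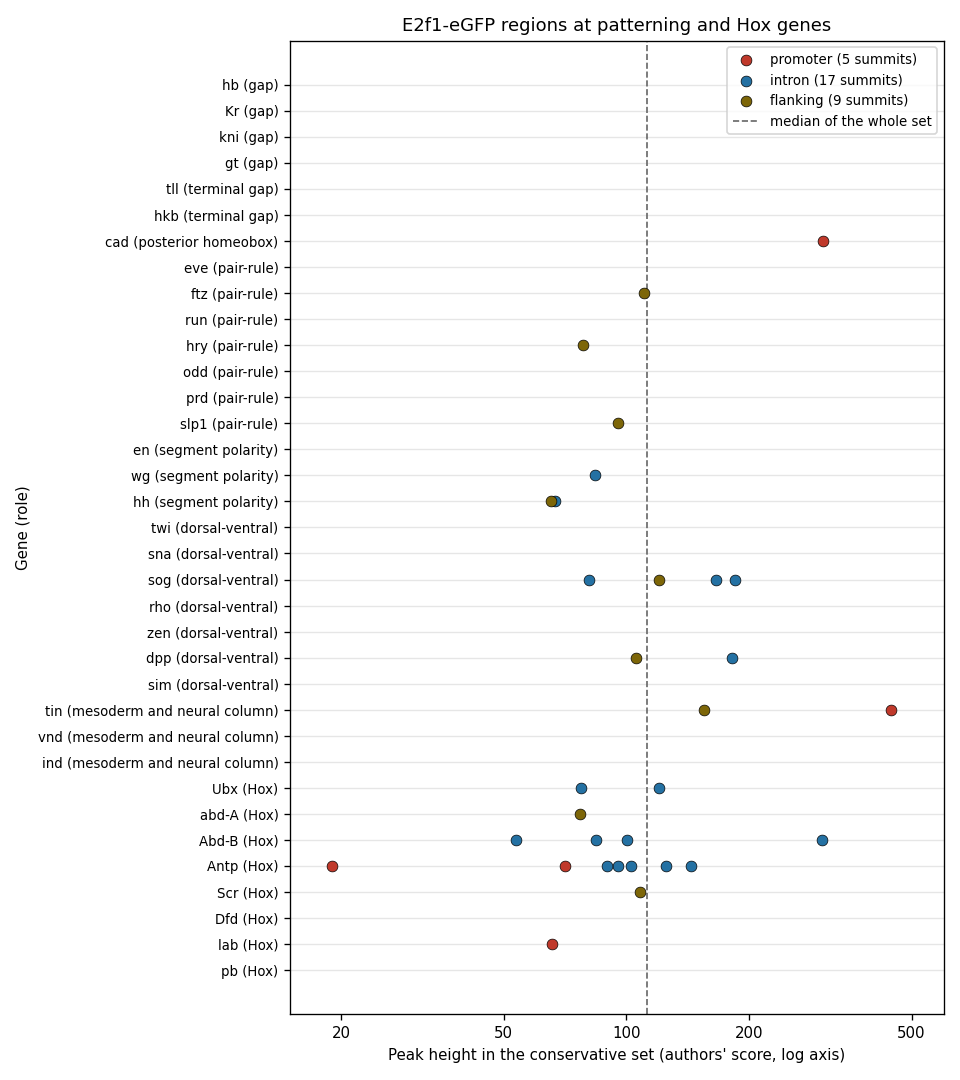
Peak height of each of the 31 member summits in the conservative set (x axis, the authors' score on a log scale) for the 35 genes grouped by role (y axis), coloured by where the summit lies; the dashed line is the median of all 4439 regions, 113. The tin promoter stands highest at 446, 20 genes have no point, and most points lie below the line.

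At their own promoters, no more than 500 bp from an annotated start of transcription (TSS), the members had summits at 2 genes, tin and Antp (5.71%), against 17.6% of all coding genes. In the other 3 sets tin was the 1 gene so bound (2.86%), against 19.7% of coding genes in the larger set, 15.8% in replicate 1 and 13.8% in replicate 2. Candidates at the promoters, most of them below the threshold, were common. The ranked lists, which also hold regions far from passing the threshold, had a candidate at a promoter of 27 of the 35 in replicate 1 (77.1%, against 65.4% of coding genes) and of 25 in replicate 2 (71.4%, against 56.9%). Leaving out tin, the candidate heights at these promoters had a median of 21.9 in replicate 1 and 14.9 in replicate 2. The highest were 51.6 at wg in replicate 1 and 30.2 at Antp in replicate 2, below the set medians of 75.4 and 65.2. None of these candidates passed its replicate's threshold, so lower heights than in the sets were largely given by that selection. Candidate heights at the promoters of all coding genes were not compared.

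Gap genes had no region. These transcription factors, hb, Kr, kni and gt, and the terminal factors tll and hkb had no region in any of the 4 sets. The nearest summit of the conservative set lay 7.33 kb from hkb, 11.3 kb from tll, 14.2 kb from hb, 15.3 kb from kni, 39.8 kb from gt and 59.2 kb from Kr. The Kr window also had no candidate of any height in the ranked list of replicate 2, and 6 in that of replicate 1, the highest 25.7. The merged windows of the 4 gap genes span 56.5 kb. Over the windows of all coding genes there were 3.74 summits per 100 kb.

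The homeobox gene cad, which patterns the posterior, had 1 region, of height 303 (rank 490 of 4439). In replicate 1 it had a height of 180.0 and in replicate 2 of 119.9, and it was in both replicates' own sets. Its summit lay 4.25 kb beyond the gene and at -271 bp from the TSS of Pomp, which encodes a proteasome maturation protein, so this is a promoter region of a neighbour.

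Of the 7 pair-rule genes 3, ftz, hry and slp1, had 1 region each, all flanking. Among all coding genes 46.4% had a region, and among those under 5 kb 41.8%. The pair-rule genes had a median length of 2.53 kb. The region at ftz, a homeobox gene, had a height of 110.2 and lay 3.28 kb beyond the gene, at 56.1 in replicate 1 and 48.3 in replicate 2, in both own sets. That at slp1, a forkhead factor, lay 736 bp beyond the gene at a height of 95.4. It stood at 58.6 in replicate 1 and 36.3 in replicate 2, and passed the threshold of replicate 1 alone. That at hry, a repressor of the basic helix-loop-helix type, had a height of 78.4 and was in the set of replicate 2 (41.1) but not of replicate 1 (34.1). Replicate 2 and the larger set had a further region on the other side of hry, 42.6 in replicate 2. The Runt factor run had 1 region in the larger set alone, of height 53.1. The homeobox gene eve, the zinc finger gene odd and prd, of the paired box family, had none in any set.

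The ligands among the segment polarity genes had weak regions and the homeobox gene en had none. An intronic region at wg, the Wnt ligand, had a height of 83.9 and was in neither replicate's own set, with candidates of 47.97 in replicate 1 and 30.01 in replicate 2. At hh, the Hedgehog ligand, 1 region lay in an intron (66.8, in neither own set) and 1 lay 2924 bp upstream of the gene (65.2, in the set of replicate 2 alone). Both hh regions ranked among the lowest of the set, at 3980 and 4041 of 4439.

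Of the 7 dorsal-ventral genes 2 had regions, dpp and sog, against 46.4% of all coding genes. Both belong to the BMP pathway that shapes the dorsal side, and both are long, 31.5 and 30.2 kb. Of coding genes of 20 kb or more 65.4% had a region. The members twi and sim are also of that length and had none. The BMP ligand gene dpp had 2 regions and sog, a secreted antagonist of BMP ligands, had 4. The highest at sog (chromosome X, 15603283 to 15633434, minus strand) lay in introns, 3510 and 7056 bp downstream of the nearest start site, at heights of 184 and 166. In replicate 1 they stood at 96.7 and 91.6, and in replicate 2 at 85.2 and 72.7. A further region 3398 bp beyond the 3′ end of sog had a height of 120.3, with 67.7 in replicate 1 and 55.04 in replicate 2. These 3 were in both own sets, and the fourth, intronic at 80.9, was in neither own set nor the larger set.

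The dpp gene (chromosome 2L, 2428372 to 2459823, plus strand) had an intronic region of height 182, which is 5273 bp downstream of the nearest start site. It had heights of 109.5 in replicate 1 and 70.7 in replicate 2. The region 1719 bp upstream of dpp had a height of 106, with 52.97 and 56.09, and both dpp regions were in both own sets. The mesoderm regulators twi and sna, the intramembrane protease gene rho, the homeobox gene zen and the midline regulator sim had no region in any set. With 62.95 kb twi was the longest of the 18 genes without a region, and its highest candidates were 37.7 and 25.8. The zen gene lay just beyond the limit of 5 kb, with the nearest summit at 5.46 kb, as did odd at 5.52 kb. Just inside it were abd-A at 4.76 kb and Scr at 4.36 kb.

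Among tin, vnd and ind, homeobox genes of the mesoderm and of the neural columns, tin alone had regions. The tin promoter was the highest member region in every set (chromosome 3R, 21378643 to 21378861, height 446, rank 233 of 4439). Its summit lay 205 bp upstream of the TSS. It stood at 280.2 in replicate 1 and 169 in replicate 2, and the replicates' summits lay 12 and 9 bp from that of the conservative set. The upstream region, 2508 bp from the tin start site and 932 bp downstream of the nearest start site of the neighbouring gene mod(mdg4), had a height of 155. It stood at 122 in replicate 1 and 34.95 in replicate 2, a ratio of 3.49, the highest among the 31 member regions. It was in the set of replicate 1 and not in that of replicate 2.

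Hox genes held 16 of the 31 summits. Of the 8 Hox genes 6 had a region (lab, Scr, Antp, Ubx, abd-A and Abd-B), against 46.4% of all coding genes. Of coding genes of 20 kb or more 65.4% had one, and the median length of the Hox genes was 30.6 kb. The larger set also had 6, against 49.5%. In the own sets of replicates 1 and 2 it was 4 and 3 of the 8, against 41.6% and 38.9%. Dfd had a region in replicate 1 alone, 549 bp upstream of its start (61.3), and pb had none in any set. Along the Hox windows, 418 kb once merged, lay 3.83 summits per 100 kb, against 3.74 over the windows of all coding genes. The 16 summits include the overlapping pairs at Antp and Abd-B described below. In the larger set the Hox windows held 3.11 per 100 kb, against 4.36. In the replicates' own sets they held 1.92 and 1.68 per 100 kb, against 3.21 and 2.77.

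The 7 summits at Antp (chromosome 3R, 6896253 to 6999228, minus strand) lay in the downstream part of this gene of 103 kb. The intronic ones had heights of 143.7, 125, 102.7, 95.3 and 89.7. In replicate 1 these stood at 76.9, 59.4, 45.6, 48.5 and 58.4, and in replicate 2 at 48.9, 66.1, 61.9, 46.3 and 35.4. The order differed between the replicates, and 4 of the 5 were in both own sets. The 2 promoter summits, at -228 and -442 bp from an Antp start site, had heights of 70.6 and 19.0, lay 214 bp apart in overlapping regions and were in neither own set nor the larger set. Both matched the same candidate in each replicate, of height 37.8 in replicate 1 and 30.2 in replicate 2.

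**Figure D2:**
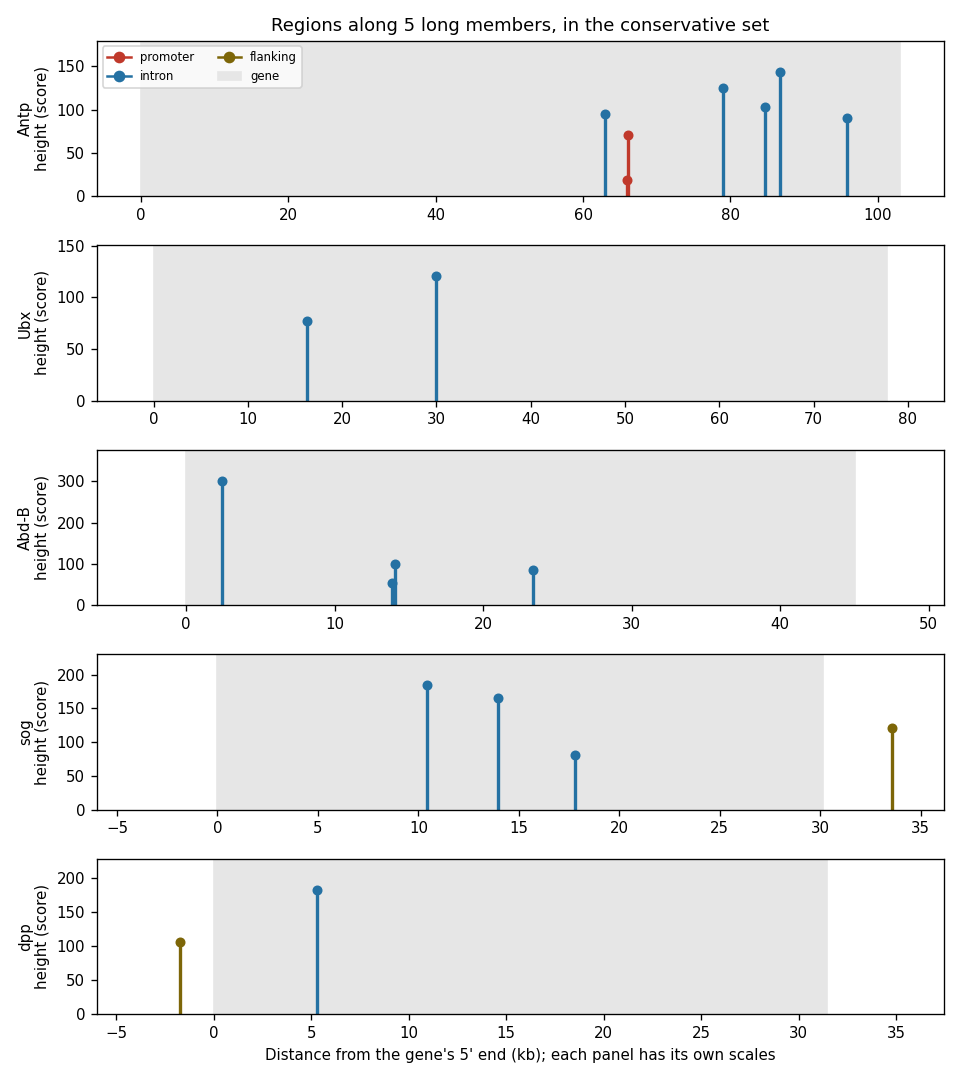
Position of each region along 5 long members (x axis, kb from the gene's 5′ end in the direction of transcription; grey marks the gene) and its height in the conservative set (y axis, score; scales differ between panels). In Antp all 7 summits lie past 60 kb, and in Abd-B the highest summit lies close to the 5′ end.

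In Abd-B (chromosome 3R, 16927212 to 16972236, minus strand) 1 intronic region stood far above the others. It had a height of 301 (rank 497 of 4439; 16969670 to 16969858), with its summit at -1207 bp from the nearest Abd-B start site, and it is the region with the E2F site at 14 bp. It stood at 180.8 in replicate 1 and 103.3 in replicate 2, in both own sets. The other Abd-B summits, at 100.6, 84.2 and 53.6, were in neither own set. Those of 100.6 and 53.6 lay 211 bp apart in overlapping regions, and in replicate 2 they matched the same candidate.

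Ubx had 2 intronic regions, of height 120.4 and 77.3, of which the larger set held only the lower. The higher stood at 76.3 in replicate 1, where it passed the threshold, and 36.2 in replicate 2, where it did not, and the lower was in neither own set. The region near abd-A lay 4.76 kb upstream of the gene (77.2, in neither own set). The region near Scr lay 4.36 kb beyond its 3′ end, at 107.9, with 58.3 in replicate 1 and 51.5 in replicate 2, and passed in replicate 2 alone. The region near lab was the promoter of the neighbours CG1307 and twr, at 65.8.

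Member summits lay mostly away from promoters. Of the 31, 17 were intronic (54.8%), 9 flanking (29.0%) and 5 at a promoter (16.1%), of which 3 belonged to a member (1 at tin, 2 at Antp) and 2 to neighbours (Pomp, CG1307 and twr). Of all regions of the set 46.02% lay at a promoter. Within the members' windows, 941 kb once merged, there were 3.295 summits per 100 kb against 3.74 over all coding genes. Counting summits away from promoters only, there were 2.76 against 1.92 per 100 kb, and in the replicates' own sets 1.81 against 1.497 and 1.70 against 1.40. These densities were not tested.

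Gene length moved with the count. The members had a median length of 6.65 kb, against 2.17 kb for all coding genes. Of 10 members of 20 kb or more 7 had a region (70%), against 65.4% of coding genes of that length. In the larger set this share was also 70% of members, against 69.99%, but in each replicate's own set it was 5 of 10 (50%), against 59.8% in replicate 1 and 58.9% in replicate 2. In the conservative set, of 9 from 5 to 20 kb 4 did (44.4%), against 58.5%, and of 16 under 5 kb 4 did (25%), against 41.8%. Its part in the result was not tested.

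**Figure D3:**
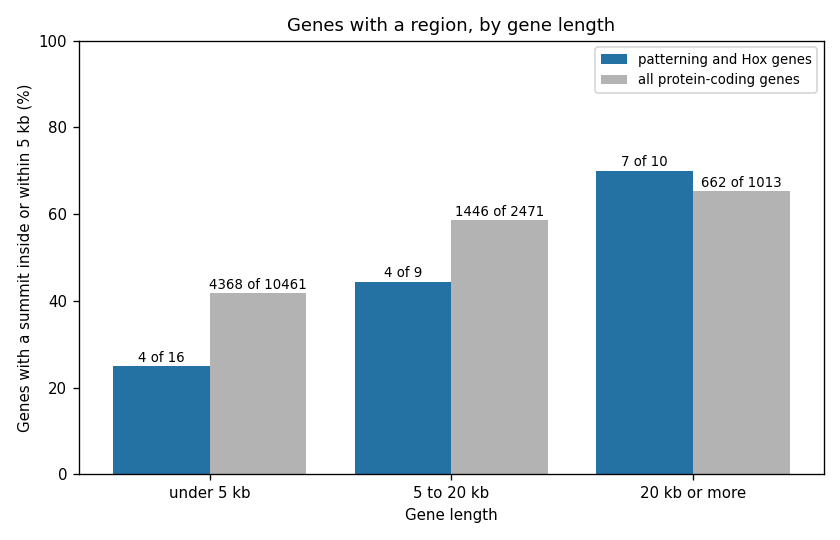
Share of genes with a summit inside or within 5 kb of the gene in the conservative set (y axis, percent), by gene length (x axis), for the 35 members and all 13945 coding genes; the numbers over the bars are counts. The share rises with length in both groups, and members lie below coding genes in the shorter classes.

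Heights at members were moderate. The median of the 31 was 100.6, against 113 for the whole set, with 11 of them in its higher part by rank and 1, the tin promoter, in the top 10%. In replicate 1 the medians were 67.7 at members and 75.4 in the set, and in replicate 2 55.6 and 65.2. Away from promoters the member median was 101.6, against 106 for all such regions. The q-like values are held as -log10. Converted back, 6 of the 31 regions had a q-like value over 0.05, as did 754 of all 4439.

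The shares of member regions in the replicates' own sets were lower than those of the set as a whole, a difference that was not tested. Of the 31, 16 overlapped a region of replicate 1 (51.6%, against 68.8% of all regions), 17 one of replicate 2 (54.8%, against 67.3%) and 13 both (41.9%, against 55.3%). Another 11 overlapped neither (35.5%, against 19.2%), among them the regions of wg, abd-A and lab. Every one of the 31 met a candidate in both ranked lists, as did 4380 of all 4439 regions. The height was greater in replicate 1 for 22 of 31 (71.0%), against 76.9% of all regions with candidates in both. The median ratio was 1.23, as over all regions (1.23), and member ratios ran from 0.736 to 3.49. Starting from the replicates' own sets, 15 of 19 member regions of replicate 1 overlapped a region of replicate 2 (78.9%, exact 95% interval 54.4 to 93.9, counting error only), against 67.5% of all, and 13 of 18 the other way (72.2%), against 75.3%. The 19 regions include overlapping pairs at Antp and at sog. Each pair met the same region of replicate 2, so the interval treats as independent what is not.

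**Figure D4:**
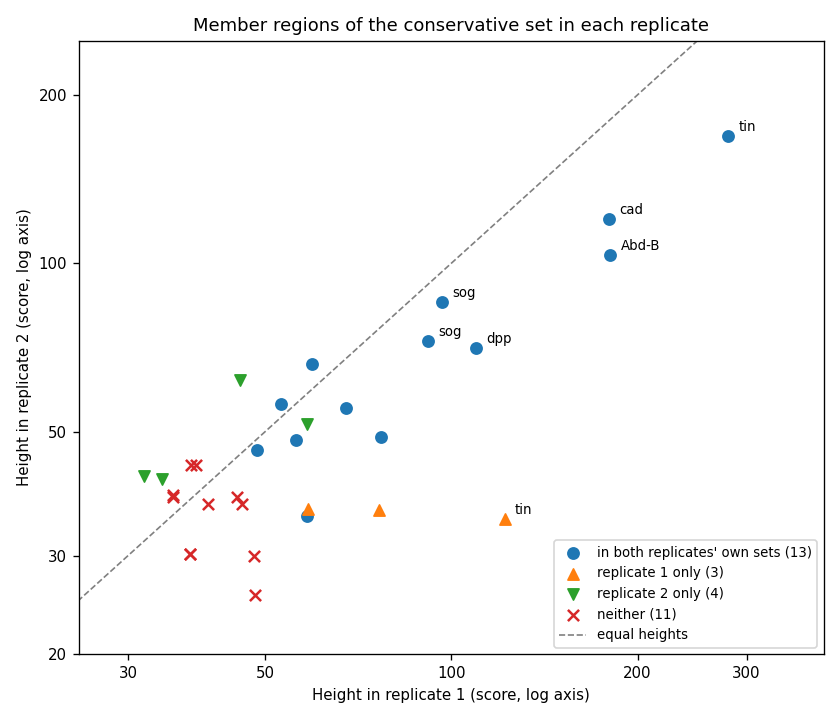
Height of the 31 member regions in replicate 1 (x axis) and replicate 2 (y axis), from each replicate's ranked list, on log scales; symbols give the own sets that hold the region and the dashed line marks equal heights. The 6 highest regions in the conservative set are in both sets, and the labelled tin point at the lower right is its upstream region at 122 and 34.95.

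Base composition at member summits differed from that of all regions in 1 set more than in the others. In the conservative set G and C made up a median of 30.7% of the 101 bases at member summits, from 19.8% to 50.5%, against 31.7% over all. In replicate 1 the medians were 26.7% at members and 33.7% over all regions, in replicate 2 31.2% and 30.7%, and in the larger set 30.7% and 32.7%. In the conservative set an E2F site lay within 50 bp of 1 of 31 summits (3.23%), against 4.17% of all 4439, and within the region for 6 of 31 (19.4%), against 14.8%. The heptamer CAGGTAG of Zelda, which opens chromatin in the early embryo, was in none of the 31 regions, against 1.46% of all regions. GAGAG, bound by the GAGA factor, lay within 50 bp of 4 summits (12.9%, against 9.03%), 2 of them at Antp, 1 at Abd-B and 1 upstream of tin. The core TATCGAT of the DNA replication-related element lay within 50 bp of 1, an Antp intron summit (3.23%, against 3.56%). Matches were sought on both strands, and overlapping matches count once per summit.

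Other patterning genes were counted in the same way. Of 82 other genes in 6 lists, none of them a member, 39 had a region (47.6%, against 46.4% of coding genes) and 10 a summit at their own promoter (12.2%, against 17.6%). The share with a region was above that of coding genes in every set. The share with a summit at their own promoter was below it in every set but that of replicate 1. With a region there were 42 in the larger set (51.2%, against 49.5%) and 38 in each replicate's own set (46.3%, against 41.6% in replicate 1 and 38.9% in replicate 2). At their own promoter there were 14 in the larger set (17.1%, against 19.7%), 14 in replicate 1 (17.1%, against 15.8%) and 8 in replicate 2 (9.76%, against 13.8%). Of the 17 maternal genes 8 had a region (47.1%). The highest were those of cact, the inhibitor of the Dorsal factor (284.0), nanos, a translational repressor (245), and bcd, the anterior morphogen (175). Of these 17, cact (284), nanos (218), bcd (146) and stau (121) were bound at their own promoters, at the heights given, stau in replicate 1's own set alone and the others in both. Of 9 gap and head genes 3 had one (33.3%), cnc (151, at its promoter), oc (149) and ems (78.2).

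On the list of 3 other pair-rule genes 2 had a region (66.7%, against 46.4% of all coding genes). These were slp2, the neighbour of slp1 (418), and Ten-m (285). Of 16 other segment polarity genes 6 had one (37.5%). The highest were at dsh (454) and fz (355) of the Wnt pathway and nkd (352, at its own promoter). Of 29 other dorsal-ventral and mesoderm genes 17 had one (58.6%, against the same 46.4%). They were led by the muscle factor Mef2 (765), zfh1 (482) and aos, an inhibitor of EGF receptor signalling (466). In this group Mef2 (72.5), aos (246), spi (334) and ush (69.3) had a summit at their own promoter, at the heights given. In the replicates' own sets aos and spi had one in both, ush in replicate 1 alone and Mef2 in neither. Of 8 Hox cofactors and regulators 3 had one (37.5%), hth (236), ftz-f1 (134) and disco-r (69.0). None was at the gene's own promoter in this set, though ftz-f1 had such a summit in replicate 1. Some of these summits lay nearer the TSS of another gene, such as those near Mef2 (Pal1), dsh (CG1737), nanos (CG42359), bcd (Ama) and Ten-m (IleRS).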

How the data were processed

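Peaks and their IDR were computed by the authors from the alignments of each replicate or of both replicates and 1 further alignment file, per the file headers of the deposited text descriptions. Which aligner and caller were run is not given in the sources used here. Values taken from the deposited files are peak heights, which are a score with no stated normalization, and -log10 values (of a column resembling q, and of global IDR, which stops at 5). In the deposited files every thresholded region had a global IDR under 0.01 in its ranked list. Coordinates are dm6, per the labels.

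Summits were written 1-based and classed with Ensembl BDGP6.54, release 115, TSSs of transposable elements left out. A summit within 500 bp of any TSS was a promoter summit, otherwise it was intronic, exonic or flanking. Each summit counted once, on the major arms and chromosome 4. Heights by replicate are those of the overlapping candidate with the nearest summit. Bases were read from RefSeq's dm6 assembly, and motifs were sought in windows of 50 bp each side. Symbols of 2 list genes were respelled (nanos, ftz-f1).

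No set test was run: counts stand beside those of all genes or regions, which are not independent replicates. Named genes were all 35 members, neighbours whose TSS is near a member summit, and in each other list the 3 genes with the highest region and those with a promoter summit. Members and lists were chosen with earlier results of these data known. Class and motif rules were tested on simulated data. A possible control experiment was not analysed here. Scripts ran under Python 3.11.15 (pandas 2.3.3, with numpy 2.4.6), intervals came from scipy 1.17.1, and plots from matplotlib 3.10.9.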

Additional observations from a re-analysis of the deposited data

How the results depend on the processing

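No paired analysis was possible because there was 1 group. Of 58 recomputed values 33 stayed within 1.5 times the reported count, or within the interval of the share, and 25 did not. With 1 replicate left out, summits at members numbered 18 to 19, promoter summits 2 to 2, intronic summits 9 to 11, and members with a summit at their own promoter 1 to 1. In the larger set there were 3 promoter summits and 1 member bound at its own promoter. At a global IDR of 0.001, which kept 2655 of 4439 regions, 9 members had a region, with 15 summits, of which 2 were at promoters, 8 intronic and 5 flanking, and 1 member was bound at its own promoter. With a gene window of 2 kb 9 members had a region, with 22 summits, of which 3 were at promoters and 2 flanking. With a window of 10 kb 18 members had a region, with 45 summits. Of these 45, 9 were at promoters and 19 flanking, and 5 had an E2F site within 50 bp. With a promoter distance of 200 bp 1 promoter summit was left and 0 members were bound at their own promoter, since the promoter summits lie 205 bp from the TSS at tin and at -228 and -442 bp at Antp. With E2F sites sought within 100 bp 4 of the 31 summits had one. Shares over all genes or regions were not recomputed under the IDR, window or distance settings, so these counts have no background beside them. Counting summits within 300 bp once, an alternative chosen after seeing the data, left 29 summits. The share of replicate 1 member regions found in replicate 2 ran from 68.4% to 80% in the other settings. Where no construction shows it, the cause was not tested. The replicates were 2 and their depth is unknown, which limits every comparison of weak regions.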
